A study of Gallus gallus with 4 samples.

Results

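The miRNA rows described here are 157 of the 1140 rows of the miRNA count table, out of 24689 rows in the 6 tables of the series. They were chosen by their level: at least 100 reads in both total libraries and fewer than 5000 reads in at least one of them. The RNA, 19 to 38 nucleotides long, was taken from the cranial midbrain region of chick embryos (Gallus gallus, wild type) that had reached stage HH9- after about 30 h at 37 °C. Samples were divided into a portion treated with sodium periodate (oxidized) and an untreated portion (total), which gave 2 oxidized and 2 total libraries. No group carries a transgene or another treatment. Whether the replicates hold different embryos is not stated in the labels, so p-values may rest on technical spread alone. The tissue was sampled in bulk, so levels are averages over its cells. The contrast sets treated against untreated portions and tells nothing about differences between cells.

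MicroRNAs (miRNAs) are short RNAs, cut from hairpin precursors by Drosha and Dicer, that guide Argonaute proteins to matching messenger RNAs and lower their output. Animal miRNAs as a rule end in an unmodified ribose, which periodate attacks, so that most can no longer be ligated to the sequencing adapter. PIWI-interacting RNAs carry a methyl group on that ribose, added by the enzyme HENMT1, and withstand the treatment. In the early head, miRNAs take part in the growth of the neural tube and in the formation of neural crest. The rows carry Ensembl gene IDs that the files do not pair with names, and 0 of them matched the RefSeq table used here. Rows are therefore given by their rank in mean level over the total libraries, from 1 for the highest to 157 for the lowest, and the tissue could not be checked against marker miRNAs.

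The libraries held 10981001 and 14081954 assigned reads after oxidation and 17962725 and 14946049 in the total libraries. Levels are given as CPM, reads per 1000000 assigned reads of the library. In total replicates 1 and 2 the 157 rows together held 233014 and 159192 reads, 1.30% and 1.07% of the library. In oxidized replicates 1 and 2 they held 25484 and 32009 reads, 0.232% and 0.227% of the library. Their summed share was thus 5.14-fold lower after oxidation, 5.59-fold in the pair of libraries numbered 1 and 4.69-fold in the pair numbered 2. The size of this fall depends on the library size used. All miRNA rows made up 75.6% and 68.2% of the total libraries and 1.56% and 1.62% of the oxidized ones. Over a library size without miRNA, the mean summed share of the 157 rows was 4.33% before and 0.233% after oxidation, a larger fall. The total level chose the rows, so these values are a description without a test.

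Among miRNA reads the 157 rows took more room after oxidation. Of all miRNA reads they made up 14.4% ± 0.588 after oxidation and 1.64% ± 0.108 before it (mean ± SD, n = 2 each). The 66 rows with 5000 or more reads in both total libraries made up 85.0% ± 0.709 and 98.3% ± 0.112. The 2 groups together hold nearly all miRNA reads, so a rise in the share of one brings a fall in the other. Their shares before oxidation follow from the choice of rows by total reads. Summed over those 66 rows the share of the library was 52.2-fold lower after oxidation. Their median oxidation ratio per row (log2 of oxidized over total CPM) was -4.90, against -4.36 in the 157 rows. These medians lay closer together than the sums, but 0.5 CPM was added to each level. This holds up the median of the 157 rows, 41 of which had no oxidized read. With 0.1 CPM added it was -5.77, but the median of the 66 rows was taken with 0.5 CPM alone. Which group had the lower typical ratio is therefore not settled. A few rows held most of the members' oxidized reads. The 10 highest of the 157 rows held 73.6% and 72.0% of the members' reads after oxidation and 25.3% and 24.4% before it (the 10 highest being taken anew in each library). The 3 rows with the highest oxidation ratios held 33.2% and 33.9% of the members' reads after oxidation, and 0.797% and 1.11% before it.

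**Figure D1:**
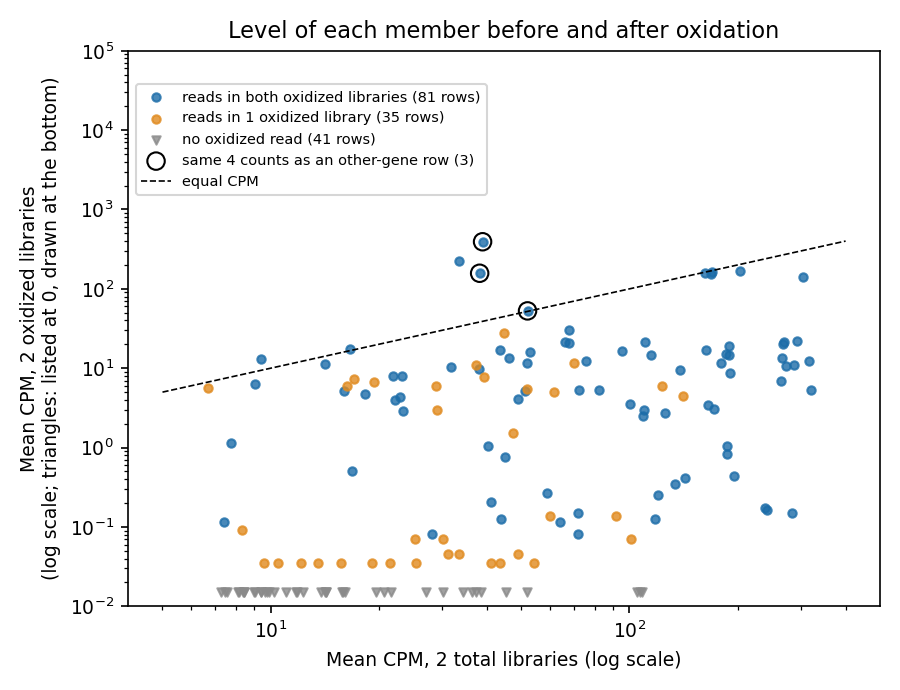
Mean CPM of each of the 157 rows in the 2 oxidized libraries (vertical, log scale) against the 2 total libraries (horizontal, log scale), coloured by the number of oxidized libraries with a read, with 41 rows listed at 0 drawn as triangles at the bottom. Most rows lie far below the dashed line of equal CPM, 3 lie well above it, and the 3 circled rows share their 4 counts with a row of the table of other genes.

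The oxidation ratio of a row was taken as log2((mean oxidized CPM + 0.5)/(mean total CPM + 0.5)). Its median over the 157 rows was -4.36, the middle part of the rows (25th to 75th percentile) ran from -5.60 to -2.53, and the whole range from -8.77 to 3.31. A ratio was below -1 in 143 rows, between -1 and 1 in 11 and above 1 in 3. The added 0.5 CPM holds the ratio of the lowest rows up: a row near 100 total reads with none after oxidation comes out near -4, whatever its true loss. Without it, and with rows at 0 set to 3 reads over both oxidized libraries, the median was -5.92. Taken over same-numbered libraries, the median was -4.86 in pair 1 and -4.39 in pair 2.

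By edgeR's quasi-likelihood test over all features, 103 of the 157 rows were called lower after oxidation, 3 higher, and 51 did not pass (Benjamini-Hochberg adjusted p under 0.05). Over all 1326 features tested 57.3% were called lower and 15.7% higher, and over the 385 miRNA rows tested 81.8% and 1.04%. The median edgeR log2 fold change was -5.91 over the 157 rows and -5.25 over all features tested. All 157 rows passed the filter on low counts, 76 of them with no read in an oxidized library, because a high total count is enough for it. Since the total counts both chose the rows and enter the test, nothing is read from the number of calls. Fewer members were called lower when a total library was left out, and more when an oxidized library was left out. Such fits leave 1 library in a group, and the share over all features was taken in the main fit only. Among the 33 rows with at least 40 reads in both oxidized libraries, a subset picked by its oxidized counts, 17 were called lower and 3 higher.

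**Figure D2:**
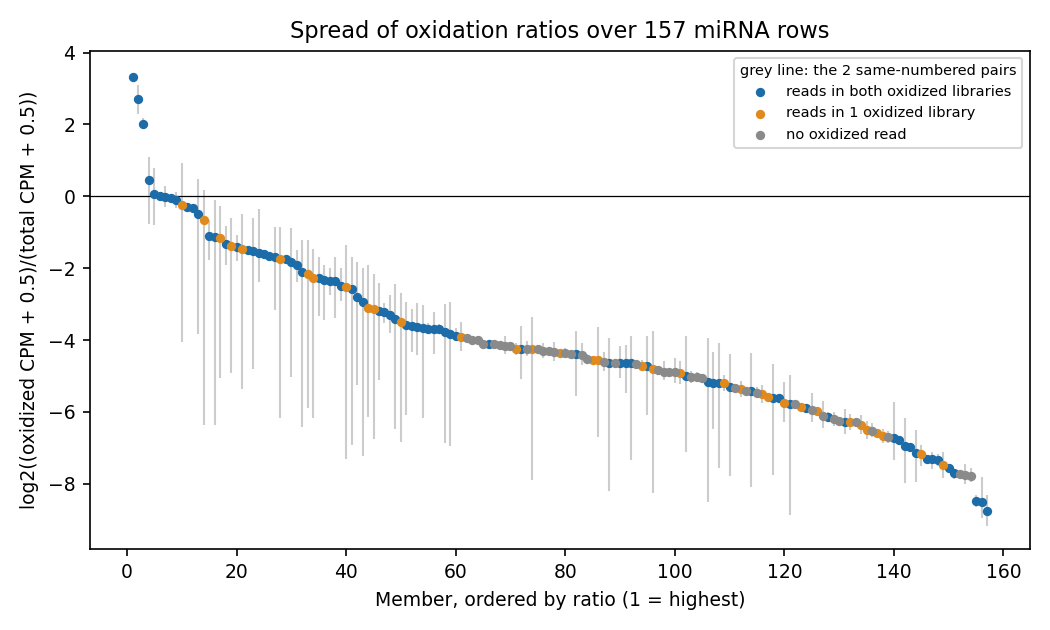
Oxidation ratio (log2 scale) of each of the 157 rows in order from the highest to the lowest, coloured by the number of oxidized libraries with a read, with a grey line between the ratios of the 2 same-numbered library pairs. The ratios run from 3.31 to -8.77, and the long grey lines belong to rows with many reads in 1 oxidized library and few or none in the other.

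At the upper end stood 3 rows with more reads after oxidation than before. ENSGALG00000036151 (rank 82) had 3769 and 6211 reads after oxidation and 668 and 609 without it, in replicates 1 and 2. Its level was 10.1-fold higher after oxidation, 392 ± 69.2 against 38.97 ± 2.52 CPM (edgeR log2 fold change 3.33, SE 0.31, adjusted p = 0.0059, higher in both oxidized libraries). Oxidized and total libraries were well apart in this row.

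ENSGALG00000033220 (rank 91) had 2943 and 2467 oxidized reads and 560 and 533 total reads. The level was 6.63-fold higher after oxidation (edgeR log2 fold change 2.73, SE 0.39, adjusted p = 0.0072). It is the one riser here without a twin row in the table of other genes.

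Rank 84 had 1756 and 2177 oxidized reads beside 630 and 619 total reads, 4.11-fold higher in CPM (edgeR log2 fold change 2.04, SE 0.32, adjusted p = 0.0087). Its call was the least firm of the 3. It was lost with the replicate number as a block (edgeR adjusted p = 0.056), without total replicate 1 (0.27) and without total replicate 2 (0.20). DESeq2 called 0 of the 157 rows higher, also at an unadjusted p under 0.05, with adjusted p = 0.13, 0.22 and 0.40 for ranks 82, 91 and 84.

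The direction of these rows is relative to what else was read. Leaving miRNA out of the library size shifts the median log2 fold change of all features by -1.74. On that scale rank 82 was still called higher (edgeR log2 fold change 1.51, adjusted p = 0.026), whereas rank 91 (0.91, adjusted p = 0.15) and rank 84 (0.22, adjusted p = 0.68) were not.

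Places 4, 5 and 6 in the order were held by ranks 142, 116 and 63, with ratios of 0.46, 0.06 and 0.02, and none of them passed the edgeR test. Rank 142 had 57 and 295 oxidized reads against 165 and 143 total reads, and rank 116 had 120 and 334 against 351 and 204, so both were below the total level in replicate 1 and above it in replicate 2. Over a library size without miRNA the 3 ratios were -1.32, -1.78 and -1.79. After them, at places 7, 8, 9 and 11, came 4 abundant rows whose share of the library was about equal before and after oxidation. Places 10 and 12 were held by rows of low total level, ranks 157 and 126, with ratios of -0.25 and -0.33. Rank 157 had 122 and 0 oxidized reads, with ratios of 0.92 in pair 1 and -4.05 in pair 2, so it was not near equal. Rank 126 had 147 and 126 oxidized reads against 301 and 174 total reads. Its ratio was -0.31 in pair 1 and -0.36 in pair 2, and it did not pass the edgeR test. A ratio near 0 in both pairs was thus not confined to abundant rows. Rank 28 had 1621 and 2442 oxidized reads against 3262 and 2136 total reads, a ratio of -0.02. Rank 24 had 1932 and 2180 against 3428 and 2211, a ratio of -0.03. In both rows the CPM values of the oxidized and total libraries overlapped.

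Rank 25 (1591 and 2353 against 3290 and 2296) had a ratio of -0.11. Rank 14 (1884 and 2287 against 3928 and 2814) had a ratio of -0.28. Its oxidized libraries, at 172 and 162 CPM, both lay below its total libraries, at 219 and 188 CPM. The 4 abundant rows did not pass the edgeR test. Over a library size without miRNA their ratios, from rank 28 to rank 14 in this order, were -1.87, -1.89, -1.96 and -2.13. Near-equality thus holds on the first scale alone. Rank 3, with 2126 and 1258 oxidized reads against 5468 and 4543 total reads, had a ratio of -1.10 and did not pass either (edgeR adjusted p = 0.11).

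The lowest ratios with reads in every library belonged to abundant members. With 0.5 CPM added, only rows of high total level can reach such ratios, whatever the loss in other rows. ENSGALG00000018263 (rank 6) had 6142 and 3354 total reads and 1 and 3 after oxidation, 1862-fold lower in mean CPM (edgeR log2 fold change -10.75, SE 0.71, adjusted p = 0.0029). With so few oxidized reads, the size of the fall is known only roughly. ENSGALG00000021736 (rank 12) went from 6096 and 2163 reads to 2 and 2, 1493-fold lower (edgeR log2 fold change -10.48, SE 0.82, adjusted p = 0.0041). Rank 13 went from 4423 and 3436 to 3 and 1 (edgeR log2 fold change -10.41, SE 0.85, adjusted p = 0.0045). In total level the 3 rows were of the same order as ranks 3, 14, 24, 25 and 28, whose ratios lay between -1.10 and -0.02. These 8 rows, at 162 to 304 CPM before oxidation, thus had ratios from -8.77 to -0.02.

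The most abundant members differed between the oxidized libraries. Rank 1 had 116 oxidized reads in replicate 1 and 2 in replicate 2, against 6172 and 4448 total reads (ratio -5.78). Rank 2 had 267 and 5, against 6879 and 3728 (ratio -4.62). In neither row did the oxidized and total libraries overlap, but the spread between the oxidized libraries was wide, and neither passed (edgeR adjusted p = 0.069 and 0.11). At the middle of the order, rank 134 had 0 and 1 oxidized reads against 179 and 165 total reads, and ranks 137 and 138 had none against 194 and 131 and against 206 and 117. The median row is therefore one at the edge of detection.

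After oxidation 81 rows had reads in both libraries, 35 in 1 of them and 41 in neither. The 81 rows had a median ratio of -3.63, with a range from -8.77 to 3.31. The 35 rows had a median of -4.56, with a range from -7.48 to -0.25. The 41 rows without a read lay between -7.77 and -3.96 (median -4.84). With no oxidized read these ratios follow from the added 0.5 CPM and the total level alone and measure no loss: rank 41, the lowest of them, was at -10.09 with 0.1 CPM added and at -6.78 with 1 CPM.

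Total levels differed between these classes as well. The median total level was 82.04 CPM in the rows with reads in both oxidized libraries, 31.1 CPM in those with reads in 1 and 13.8 CPM in those with none. Of the 34 rows with 100 to 199 reads in the lower total library, 5 had reads in both oxidized libraries and 23 in neither. Of the 35 rows with 200 to 499 reads these were 11 and 11, and of the 34 rows with 500 to 999 reads 20 and 4. Of the 27 rows with 1000 to 1999 reads 18 were found in both and 3 in neither, and the 27 rows with 2000 or more were found in both. Presence after oxidation and the level before it therefore cannot be told apart in most of the range. The median ratio was -4.25, -5.03, -3.30, -4.99 and -4.38 from the lowest to the highest of these 5 levels. These medians cannot show whether the ratio follows the level, because the added 0.5 CPM limits how low a ratio can come out. The lowest ratio was -4.92 at 100 to 199 reads and -8.77 at 2000 or more. Over all members the ratio correlated with total CPM at Spearman's rho = -0.19, under the same limit. In the rows with at least 40 reads in both oxidized libraries rho was -0.61. Those rows were picked by their oxidized counts, and total CPM enters the ratio, so nothing is read from either rho. For comparison, 66 of the 66 rows above the upper bound had reads in both oxidized libraries, and 9 of the 449 rows below the lower bound that had any read.

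**Figure D3:**
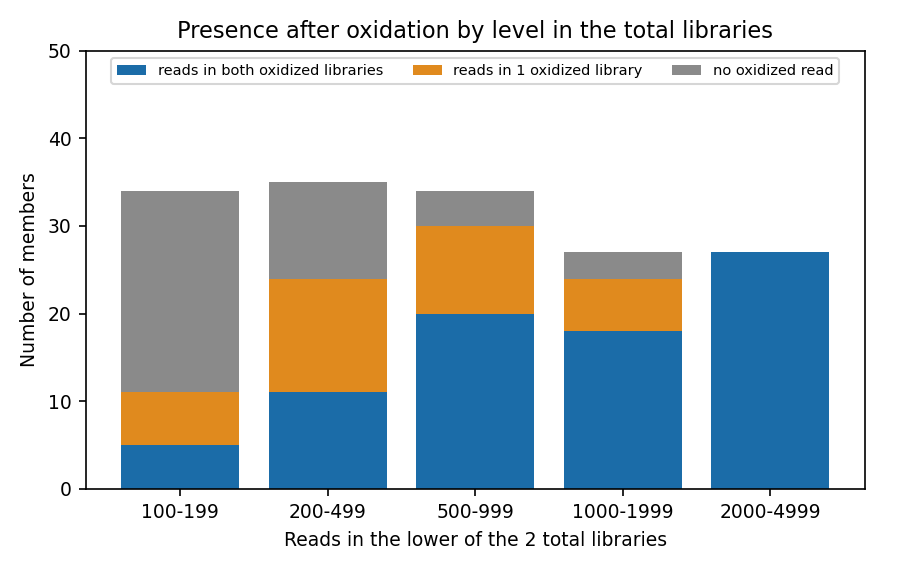
Number of rows with reads in both, in 1 or in no oxidized library, stacked by the read count in the lower of the 2 total libraries. Rows without an oxidized read fall from 23 of 34 at 100 to 199 reads to 0 of 27 at 2000 or more.

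Some rows without an oxidized read were well covered before oxidation. Rank 41 had 2217 and 1402 total reads, rank 42 had 2282 and 1309, and rank 43 had 1839 and 1604. With 0 reads allowing up to 3, or 0.120 CPM over both oxidized libraries, rank 41 was at least 907-fold lower. The same bound was at least 60.6-fold for the row without an oxidized read and with the lowest level, and at least 116-fold at the median of the 41 rows. These bounds cover counting error alone, and PCR copies of a molecule are not told apart.

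Counts in the oxidized libraries came in separate sizes. Of the 35 rows seen in 1 oxidized library, 20 had 1 to 3 reads there, 15 had 43 to 614, and 0 had 4 to 39. Rank 74 had 614 oxidized reads in replicate 1 and 0 in replicate 2, against 886 and 602 total reads. Rank 87 had 0 and 305, rank 53 had 257 and 0, rank 111 had 0 and 190, and rank 97 had 0 and 170. All 15 rows of the larger size did not pass the edgeR test, and the 20 rows of the smaller size were called lower, as were the 41 rows without a read. Over all features tested 57.3% were called lower. The oxidized counts both sort these rows and enter the test, so nothing is read from these calls. The lowest-ranked member, rank 157, had 122 and 0 oxidized reads against 101 and 116 total reads, and its ratio was 0.92 in pair 1 and -4.05 in pair 2.

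Over all 157 rows the gap was narrower and not empty. In oxidized replicate 1, 64 rows had no read, 42 had 1 to 9, 3 had 10 to 39, 6 had 40 to 99 and 32 had 100 to 399. In oxidized replicate 2 these numbers were 53, 37, 8, 13 and 35. A further 10 rows of oxidized replicate 1 and 11 of oxidized replicate 2 had 400 or more. In each oxidized library the range of 10 to 39 reads held fewer rows than any other of these classes below 400 reads.

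Of the 81 rows with reads in both oxidized libraries, 33 had at least 40 in each, 17 had fewer than 10 in each, and 20 had fewer than 10 in one and at least 40 in the other. The 33 rows had a median ratio of -1.59, with a range from -4.64 to 3.31. The 17 rows had a median ratio of -6.96, with a range from -8.77 to -3.68. These classes use the oxidized counts, so their ratios are a description of 2 ends of the list and not a comparison.

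The agreement between the oxidized libraries was poor. In 32 of the 81 rows the CPM values of oxidized replicates 1 and 2 were within 2-fold of each other, in 24 they were 2- to 10-fold apart and in 25 over 10-fold, up to 329.6-fold. Between the total libraries 154 of the 157 rows were within 2-fold, and the largest difference was 3.20-fold. The rows were chosen for at least 100 reads in both total libraries, whereas oxidized counts in the 81 rows went down to 1 read. Closer agreement of the total libraries is thus partly built in, and the 2 sides are not a like comparison. The ratios of the 2 pairs differed by a median of 1.16 on the log2 scale in the 81 rows, and by 0.75 in the 33 rows with at least 40 reads in each. A difference in ratio of about 1 between single rows is therefore within the spread of the libraries. The largest difference between pairs was 6.27 in the 81 rows and 6.53 in the rows with reads in 1 oxidized library. The span of the ratios, from -8.77 to 3.31, was not tested against this spread. Across the 157 rows the ratios of the pairs correlated with Pearson's r = 0.58 and Spearman's rho = 0.48. This is a description over rows that share their libraries, not over replicates.

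**Figure D4:**
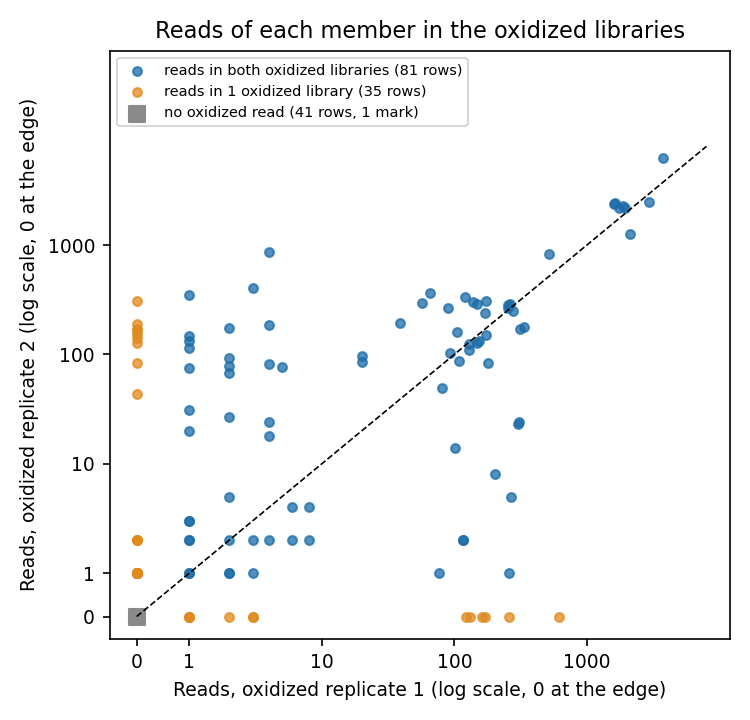
Reads of each row in oxidized replicate 1 (horizontal) and oxidized replicate 2 (vertical), both on log scales with 0 placed at the edge and the 41 rows at 0 in both as 1 grey mark. Rows above about 500 reads in both libraries lie near the dashed line of equal counts, while others have 100 reads or more in 1 library, up to 856, and fewer than 10 in the other.

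Just inside the lower bound, rank 155 had 142 and 103 total reads with 1 and 2 after oxidation. Just outside it, a row with 256 and 93 total reads had 128 and 297 oxidized reads, and one with 93 and 101 had 1 and 121. Just inside the upper bound were ranks 3 and 1, described above. Just outside it, a row with 8466 and 5058 total reads had 301 and 169 after oxidation (ratio -4.33), and one with 7249 and 5074 had 889 and 1188 (ratio -2.16).

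Most members were read from their annotated strand, as the reverse tables show. A reverse table counts reads on the strand opposite to the feature, judged by tRNA, which had 0.0026% or less of its reads there. Of the members' reads 0.311% were reverse in total replicate 1 (exact 95% binomial interval 0.289 to 0.335%) and 0.360% in total replicate 2 (0.331 to 0.391%). In the oxidized libraries these shares were 0.0785% (0.0479 to 0.121%) and 0.300% (0.243 to 0.366%). The 66 rows above the upper bound had 0.0701% and 0.0717% of their reads there before oxidation, and 1.22% and 1.88% after it. They were thus less reverse than the members before oxidation and more reverse after it. Binomial intervals cover counting error only, and single rows hold a large part of these reads. An exact two-sided permutation test of 2 libraries against 2 cannot give a p below 0.33, and none was made.

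Reverse reads were concentrated in few rows. No reverse read was found in 124 of the 157 rows in any library. Of the other 33, 27 had less than 5% reverse reads in the total libraries, at most 2.47%, and 6 had more. Rank 156 was mostly reverse, with 101 of 120 and 101 of 117 total reads, and had no oxidized read. Rank 62 had 53 of 1044 and 52 of 711 total reads on the reverse strand. Rank 155 had 33 of 142 and 35 of 103, and rank 141 had 52 of 196 and 32 of 118.

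After oxidation reverse reads were found in 1 member, rank 104, which had no others. It had 20 and 96 oxidized reads, all of them reverse, and 267 of 414 and 176 of 342 reverse reads in the total libraries. Rank 105 stood close to it in the unstranded counts but not on the reverse strand: it had 20 and 85 oxidized reads, none of them reverse, and 87 of 431 and 89 of 307 reverse reads in the total libraries. The strand of rank 104 thus went from 64.5% and 51.5% reverse before oxidation to 100% after it, while that of rank 105 went from 20.2% and 29.0% to 0%. Whether these IDs lie on opposite strands of one place was not looked up here, since no coordinates were used.

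**Figure D5:**
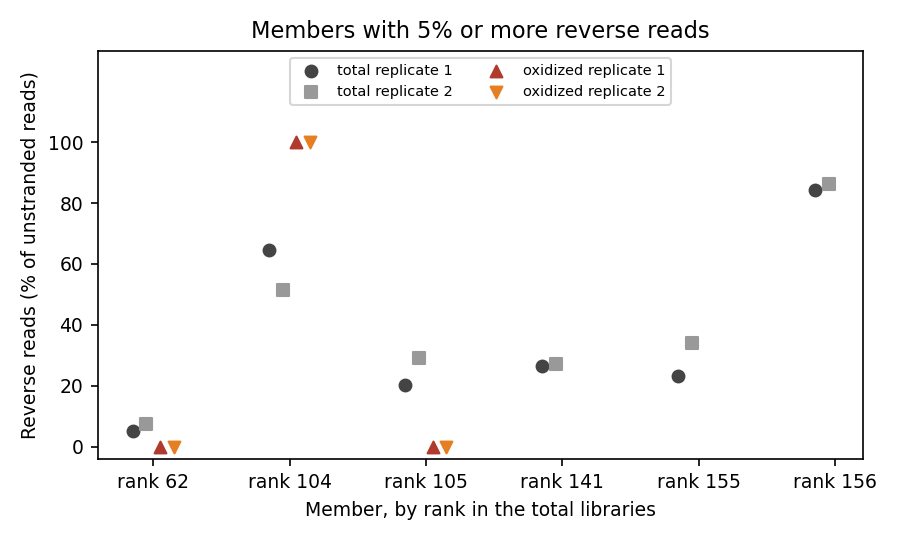
Percentage of reverse reads in each library for the 6 rows with at least 5% of their total reads on the reverse strand, shown where the library had at least 20 reads of the row. Rank 104 goes up to 100% and rank 105 down to 0% in both oxidized libraries.

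In 3 members the 4 counts were the same as those of a row in the table of other genes, and the reverse counts, 0 in each library, were the same too. They were rank 82 and rank 84, of the 3 rows called higher, and rank 63. Rank 63 had 518 and 822 oxidized reads and 874 and 827 total reads, a ratio of 0.02, with overlapping groups. Its ratio was -0.14 without oxidized replicate 2, -0.07 without total replicate 1 and -1.79 over a library size without miRNA. Whether the same reads were counted into both tables was not tested. Of the 66 miRNA rows above the upper bound 0 had such a twin, a difference from 3 of 157 that was not tested. The 3 rows had places 1, 3 and 6 in the order of oxidation ratios. Without them the members' share of the oxidized libraries was 0.169% in place of 0.230%, and their share of the total libraries 1.17% in place of 1.18%.

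No member had the same 4 counts as another miRNA row, but some came near. Among the 38 members with at least 20 reads in each oxidized library, 5 pairs differed by 15% or less in every library. Rank 8 had 337 and 179 oxidized reads and 4955 and 3937 total reads, and rank 9 had 313 and 172 oxidized and 4861 and 3954 total reads. Ranks 17 and 21, 25 and 28, 55 and 56, and 104 and 105 were the other pairs. Ranks 104 and 105 were near in unstranded counts alone, since their reverse counts differed as given above. Why their counts were near was not tested. Copies of a miRNA gene can share reads, and how the authors treated reads that map to several places is not given in the sources used here. These pairs are therefore uncertain as separate rows, and the group of 4 abundant rows with ratios near 0 holds one of them.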

How the data were processed

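For each of 4 libraries the authors deposited 6 tables of raw read counts, unstranded and for the reverse strand, made with featureCounts on galGal6 per the submitters' processing notes. The aligner, annotation and treatment of multi-mapping reads are not given in the sources used here. The members, tests and alternatives were chosen with earlier results of these data known. The unstranded counts of the 6 tables entered a single fit in edgeR 4.0.16 (glmQLFit, glmQLFTest, default filter) in R 4.3.3, without TMM factors, with the summed tables as library size. SE is the absolute log2 fold change divided by the square root of F. Alternatives were TMM, DESeq2 1.42.0, a library size without miRNA, no filter, other bounds, pseudocounts and read minimums, and leaving out each library. The fit was tested on simulated data with the same spread for every feature, which does not show how the calls behave in these libraries. Binomial intervals (exact, 95%) come from scipy 1.17.1.

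The 2 members with the highest and the 2 with the lowest edgeR fold change are given by ID (called, mean of at least 20 counts, groups apart, lower ones read in every library). Other members are the extremes of rank, ratio, reverse share and unequal oxidized counts, the median rows, those at the bounds and those with a twin row. Ranks 14, 24, 25, 28, 62 and 126, and the near-equal pairs, were chosen with their values in view. The series divides each sample, and same-numbered libraries were taken as pairs, although the labels do not say that equal numbers mark one sample. Their deviations from the group means correlated with r = 0.053 over 1326 features. With many oxidized counts near 0, this value cannot decide whether the libraries are paired.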

Additional observations from a re-analysis of the deposited data

How the results depend on the processing

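The count of 103 members called lower ranged from 43 to 142 when 1 library was left out, and was 17 among the rows with at least 40 reads in both oxidized libraries. Those rows, 33 in number, were picked by their oxidized counts, which leaves out the largest falls. Neither their count nor their median ratio below is therefore a check on all members. With the replicate block the count lower was 69, of which 60 were among the 103, with 2 higher. DESeq2 gave 93 lower and 0 higher, and leaving miRNA out of the library size gave 132 and 1. The share called over all features was taken in the main fit only. The counts under other settings stand without it, and nothing is read from them. The median ratio was -5.77 with a pseudocount of 0.1 CPM, -3.66 with 1 CPM, -6.18 without miRNA in the library size, -1.59 in the rows with at least 40 oxidized reads, and -4.84 to -4.28 with 1 library left out. The interquartile range, 3.07, was 4.74, 2.48, 2.34 and 3.73 with 0.1 CPM, 1 CPM, the replicate block and a lower bound of 200 reads, and 2.84 to 3.64 with 1 library left out. Counting a row as present from 3 or 10 reads left 50 or 39 rows in both oxidized libraries and 66 or 78 in neither, and a lower bound of 200 reads left 18 in neither. Without the member with the most reverse reads, their share was 0% after oxidation and 0.223% before it, and with bounds of 200 or 2500 reads it was 0.248% or 0.478% in total libraries. The summed share was 0.233% and 4.33% without miRNA in the library size, 0.226% after oxidation with a lower bound of 200, 0.186% and 0.804% with an upper bound of 2500, and 0.169% after oxidation without twin rows. None of these results, nor the edgeR fold changes of ranks 6, 12, 13, 82, 84 and 91, turned its direction in these alternatives. The ratio of rank 63, near 0, changed sign in 3 of them. Without oxidized replicate 2 the ratio of rank 74 went from -0.67 to 0.32 and that of rank 157 from -0.25 to 0.69. Over a library size without miRNA the ratios of ranks 116 and 142 also changed sign. With 2 libraries a group, and oxidized counts of many rows set by few or single-library reads, the size of single falls is poorly known, and the cause of these shifts was not tested.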
